A study of Homo sapiens with 8 samples.

Results

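The 10 genes described here, AFP, ALB, APOA1, APOA2, APOB, TTR, FGA, FGB, FGG and SERPINA1, encode proteins that the endoderm of the yolk sac secretes before the liver takes over. They were chosen by symbol, as genes of plasma proteins, and were found on 23 of the 41091 probe sets with 1 gene symbol, 10 of 19775 genes in all. The source was the established human embryonic stem cell line H9, maintained on mouse embryonic fibroblast feeders and differentiated toward blood with BMP4 in serum-free StemPro34. The groups were undifferentiated, unsorted H9 cells at day 0 and H9 cells positive for both KDR and CD31, isolated by FACS at day 4, day 6 and day 8, with 2 Affymetrix arrays each and 8 in all. The labels name no transgene or engineered allele. KDR is the main VEGF receptor and CD31, encoded by PECAM1, an endothelial adhesion molecule, so the gate selects for endothelial and blood-forming cells and not for endoderm. The labels call the arrays of a day biological replicates without naming separate cultures, and p-values measure only the spread between these arrays, whose number limits the precision.

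The visceral endoderm of the yolk sac is an epithelium that lies against the first blood islands and serves the embryo as an early liver. It packs lipid into lipoproteins, carries hormones and vitamins, and secretes clotting proteins and protease inhibitors. Among the 10 genes, APOA1 and APOA2 encode the main proteins of high-density lipoprotein, APOB the scaffold of low-density and very low-density lipoprotein, AFP the fetal counterpart of albumin (ALB), and TTR a carrier of thyroid hormone and of retinol-binding protein. FGA, FGB and FGG encode the 3 chains of fibrinogen, and SERPINA1 encodes alpha-1 antitrypsin, an inhibitor of neutrophil elastase. The fetal liver makes the same proteins, so yolk sac endoderm and early liver cannot be told apart by these genes alone.

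Stretches upstream of the 3 genes that were called at day 8, as described below, are printed to show where their transcription starts. Of the 10 genes, 7 have a start site in the RefSeq promoter table (GRCh38.p14) and 3 (APOA1, APOB and TTR) were not matched there. The 150 bases before a start were searched on both strands for TATAAA, the letters of the TATA box at which the general transcription machinery assembles, which read TTTATA on the opposite strand. The letters stood before the start of 1 of the 7 genes, AFP, against 8.3% of all 27305 genes in the table. The windows follow 5′ to 3′ on the strand of the gene, ending at the base before the start, with the matched letters in capitals.
AFP, chr4:73436071-73436220, plus strand: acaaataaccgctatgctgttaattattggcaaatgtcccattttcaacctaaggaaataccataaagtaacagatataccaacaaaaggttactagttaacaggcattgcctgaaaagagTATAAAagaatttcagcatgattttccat
FGG, chr4:154612657-154612806, minus strand: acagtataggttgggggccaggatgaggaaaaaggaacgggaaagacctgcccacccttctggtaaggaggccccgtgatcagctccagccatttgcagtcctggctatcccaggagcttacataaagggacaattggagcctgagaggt
SERPINA1, chr14:94388603-94388752, minus strand: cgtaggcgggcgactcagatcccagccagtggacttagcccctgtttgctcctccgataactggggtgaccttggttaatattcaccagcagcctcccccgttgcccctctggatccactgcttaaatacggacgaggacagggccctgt
SERPINA1 has 2 starts in the table, and the window with the lower coordinates is shown. A match is a description of the sequence, and no match says only that these letters are not in the window.

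Values are log2(intensity + 32), called log2 intensity, from 1 deposited intensity per probe set and array. The arrays had median intensities between 88.7 and 93.2, and a probe set under the array median is called dim, since its fold depends strongly on the offset of 32. Across the genes tested, which are not independent replicates, r between the 2 arrays of a day was 0.997 (day 0), 0.953 (day 4), 0.936 (day 6) and 0.979 (day 8). Each day 6 array was closer to the day 4 array of the same number than to the other day 6 array, at r = 0.976 for replicate 1 and 0.974 for replicate 2. Because replicate 1 of day 4 and of day 6 lay far below their partners for these genes, the tests below are also given without them. The labelled cell type was checked on 10 endothelial genes, 9 of which rose at each of the 3 days against day 0 by limma. KDR and PECAM1 are among the 10. The gate selected on their proteins, so their rise follows from the sorting and is no check. The 7 pluripotency genes that were also checked all fell at each of the 3 days by limma.

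The levels of the apolipoprotein genes in KDR and CD31 positive cells differed strongly between arrays of the same day. For APOA2 the log2 intensities were 8.32 and 8.32 on the day 0 arrays, 9.18 and 13.21 on those of day 4, 7.14 and 10.91 on those of day 6 and 11.08 and 11.18 on those of day 8, in replicate order. It was highest on replicate 2 of day 4 and lowest on replicate 1 of day 6, below both undifferentiated arrays. Its second probe set had the same high and low arrays, with 7.34 and 7.16 on the day 0 arrays, 7.44 and 11.86 on those of day 4, 6.52 and 8.55 on those of day 6 and 9.10 and 8.88 on those of day 8. APOB stood at 6.70 and 6.75 on the day 0 arrays, 7.67 and 11.01 on those of day 4, 6.95 and 8.77 on those of day 6 and 9.53 and 9.42 on those of day 8. It was dim on both day 0 arrays, and at day 4 and day 6 its arrays lay far apart while at day 8 they nearly coincided. The other APOB probe set was dim on all 8 arrays, with log2 intensities from 5.88 to 6.41.

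APOA1 was read by 2 probe sets with the suffix _x_at, which marks probes that may also match other transcripts, and by 1 without it that was dim on all 8 arrays, with log2 intensities from 6.25 to 6.63. The brighter _x_at probe set had a log2 intensity of 9.17 and 9.09 on the day 0 arrays, 9.49 and 12.07 on those of day 4, 8.09 and 9.82 on those of day 6 and 9.75 and 9.93 on those of day 8. The order of its arrays resembled that of APOA2, with replicate 2 of day 4 on top and replicate 1 of day 6 at the bottom. The probe sets of APOA1 therefore disagree, and since the rule for tests takes _x_at probe sets only where no other exists, APOA1 did not enter the main test.

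AFP, the fetal carrier, was far above its day 0 level on most sorted arrays. It had a log2 intensity of 8.19 and 8.37 on the day 0 arrays, 10.84 and 12.99 on those of day 4, 7.57 and 11.86 on those of day 6 and 13.12 and 12.56 on those of day 8. In deposited units these were 261 and 299.7 on the day 0 arrays, 1806 and 8087 on those of day 4, 158.6 and 3695 on those of day 6 and 8872 and 6012 on those of day 8. All sorted arrays except replicate 1 of day 6 lay above both day 0 arrays. ALB, its adult counterpart, was dim on 7 of the 8 arrays, with 5.63 and 5.68 on the day 0 arrays, 5.76 and 5.81 on those of day 4, 5.77 and 5.73 on those of day 6 and 7.96 and 6.73 on those of day 8. Both day 8 arrays lay above the other 6, and only replicate 1 of day 8 passed the array median. The 3 other ALB probe sets were dim throughout and spanned 0.17, 0.15 and 0.09 log2 units over all arrays.

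TTR had a log2 intensity of 7.78 and 7.78 on the day 0 arrays, 7.73 and 10.62 on those of day 4, 6.95 and 8.49 on those of day 6 and 9.20 and 8.74 on those of day 8. Replicate 1 of day 4 was at the undifferentiated level and replicate 1 of day 6 below it. SERPINA1 was at 6.69 and 6.68 on the day 0 arrays, 6.96 and 8.64 on those of day 4, 6.75 and 7.49 on those of day 6 and 8.74 and 8.49 on those of day 8, and was dim on both day 0 arrays and on replicate 1 of day 6. A second SERPINA1 probe set passed the array median on 1 array, replicate 1 of day 8 (7.15), and 2 more were dim throughout.

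**Figure D1:**
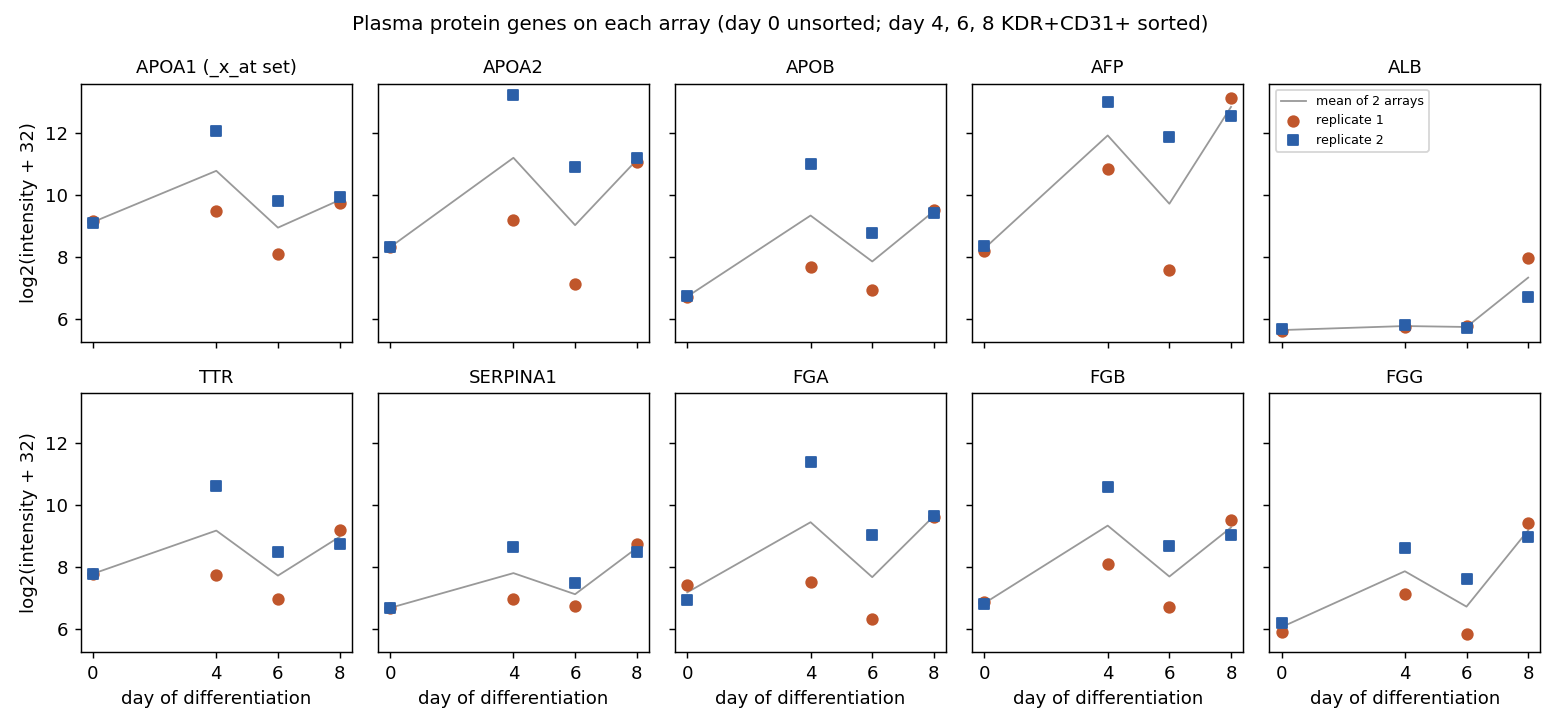
Log2(intensity + 32) of the 10 plasma protein genes (y axis) by day of differentiation (x axis), with circles for replicate 1, squares for replicate 2 and a line through the mean of the 2 arrays of a day. Replicate 2 of day 4 and of day 6 lies above replicate 1 in every panel except ALB at day 6, while the day 8 arrays lie close together except for ALB.

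The 3 fibrinogen genes lie side by side on chromosome 4 and their chains are assembled into 1 protein. FGA had a log2 intensity of 7.41 and 6.94 on the day 0 arrays, 7.51 and 11.37 on those of day 4, 6.31 and 9.03 on those of day 6 and 9.62 and 9.65 on those of day 8. FGB had 6.86 and 6.80 on the day 0 arrays, 8.08 and 10.59 on those of day 4, 6.71 and 8.67 on those of day 6 and 9.51 and 9.03 on those of day 8. FGB was dim on both day 0 arrays and on replicate 1 of day 6, and FGA on replicate 1 of day 6. FGG, dim on both day 0 arrays and on replicate 1 of day 6, had 5.91 and 6.20 on the day 0 arrays, 7.12 and 8.60 on those of day 4, 5.85 and 7.60 on those of day 6 and 9.41 and 8.95 on those of day 8. For all 3, replicate 1 of day 6 lay below both day 0 arrays, though for FGB and FGG by little and among dim values. Both day 8 arrays lay above both day 6 arrays for all 3. FGG differed from FGA and FGB in that its day 8 arrays were its highest, while FGA and FGB were highest on replicate 2 of day 4. One FGA probe set was dim on all arrays, and the other probe sets of FGA and FGB had their highest value on replicate 2 of day 4 (7.96 and 7.12).

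The difference between the 2 arrays of a day, replicate 2 minus replicate 1, was wide for these genes at day 4 and day 6. At day 4 it was 4.03 for APOA2, 3.86 for FGA, 3.35 for APOB, 2.89 for TTR, 2.57 for the brighter APOA1 probe set, 2.51 for FGB, 2.14 for AFP, 1.68 for SERPINA1, 1.48 for FGG and 0.05 for ALB on the log2 scale. Among all 13653 genes tested, APOA2 had rank 2 and FGA rank 3 in this difference, and 2.61% of all genes were over 2-fold higher on replicate 2 than on replicate 1. At day 6 the difference was 4.29 for AFP, 3.78 for APOA2, 2.72 for FGA, 1.96 for FGB, 1.82 for APOB, 1.75 for FGG, 1.73 for APOA1, 1.54 for TTR, 0.75 for SERPINA1 and -0.04 for ALB. AFP ranked 2 and APOA2 ranked 5 of 13653 there, and 3.9% of all genes were over 2-fold higher on replicate 2. The order of the genes was not the same on both days, since AFP was seventh at day 4 and first at day 6.

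On day 0 and day 8 the same genes lay closer together. The day 0 differences ran from -0.47 (FGA) to 0.29 (FGG), and those of day 8 from -0.56 (AFP) to 0.19 (APOA1) apart from ALB, which was 1.23 lower on replicate 2. At day 4 and day 6 the difference of every gene but ALB stayed above 0 with quantile normalization and median centring. A smaller or larger offset changes the size of a difference but cannot change its sign. Over all these settings the lowest value was 0.44 (SERPINA1 at day 6). With 2 arrays per day these differences have no test. RNA integrity was read from ACTB, whose 3′ over 5′ intensity ratio was 19.0 on replicate 1 and 9.18 on replicate 2 of day 4, and 31.0 and 16.0 at day 6, so at both days the array with the lower plasma protein values had the higher ratio. At day 8 it was 9.91 on replicate 1 and 15.1 on replicate 2. The same ratio for GAPDH was 2.22 and 2.15 on the day 4 arrays and 3.73 and 3.41 on those of day 6, close within each day. Of the 10 endothelial genes, 8 were also higher on replicate 2 at day 4 and 8 at day 6, with median differences of 0.29 and 0.69. The part of RNA integrity and of the endothelial genes' shift in the result was not tested.

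**Figure D2:**
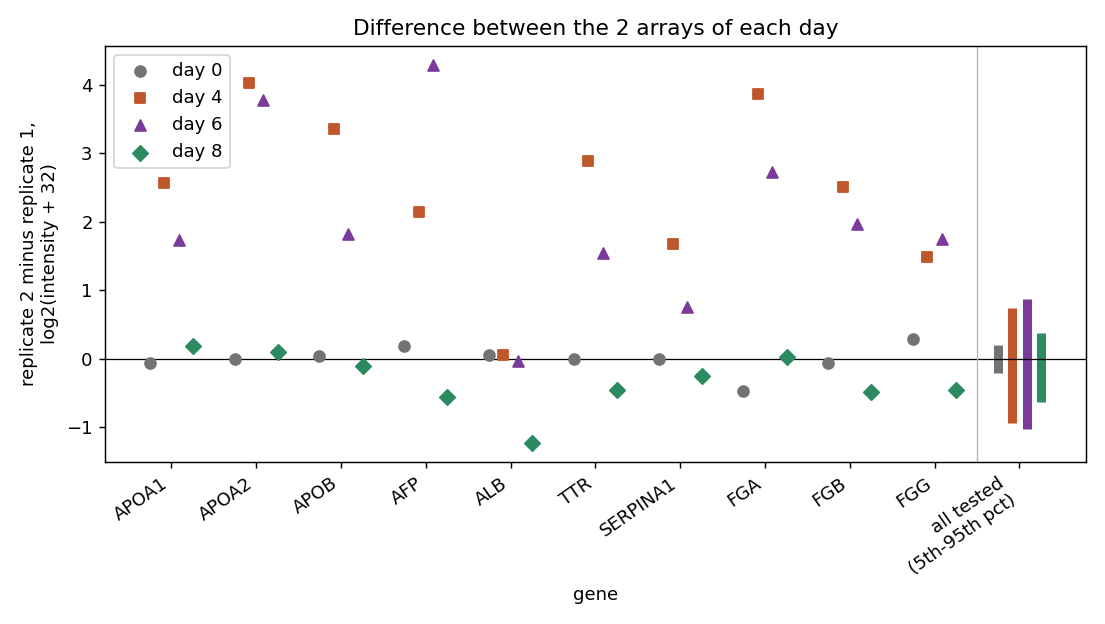
Replicate 2 minus replicate 1 in log2(intensity + 32) (y axis) for the 10 plasma protein genes (x axis, brightest _x_at probe set for APOA1), with a marker for each day and, at the right, bars from the 5th to the 95th percentile of all tested genes. Values reach 4.03 at day 4 and 4.29 at day 6 and stay between -1.23 and 0.29 at day 0 and day 8.

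The comparison with day 0 asked how the sorted cells differed from the undifferentiated culture, and in it day and sorting cannot be told apart. It was made for 8 of the 10 genes, since ALB and the dim APOA1 probe set did not pass the filter, under which 2 or more of the 8 arrays must exceed their median. A gene that passes only through the arrays where it is high had to differ, so the counts below describe these genes and support nothing on their own. In an array of bulk RNA, fewer cells of a type and less RNA per cell cannot be told apart.

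At day 8, AFP, FGG and SERPINA1 rose against day 0 (limma, adjusted over all 13653 genes tested). AFP rose by 4.56 ± 1.32 (SE), 23.5-fold, with means of 12.84 ± 0.40 at day 8 and 8.28 ± 0.13 at day 0 (SD, n = 2; limma adjusted p = 0.0463). FGG rose by 3.12 ± 0.64 (SE), 8.69-fold, with 9.18 ± 0.32 at day 8 and 6.06 ± 0.21 at day 0 (limma adjusted p = 0.0144). SERPINA1 rose by 1.93 ± 0.51 (SE), 3.81-fold, with 8.61 ± 0.18 at day 8 and 6.68 ± 0.01 at day 0 (limma adjusted p = 0.0359). FGG and SERPINA1 were dim on both day 0 arrays, so their folds depend on the offset. The FGG difference was 2.05 with a larger and 3.95 with a smaller offset. That of SERPINA1 was 1.30 with a larger offset and 0.86 as the mean of its 4 probe sets, all still called. These 3 of 8 genes stand beside 10.5% of all tested genes called higher and 24.7% called in either direction, and both day 8 arrays lay above both day 0 arrays for all 8 tested genes, as they did for 35.3% of all genes.

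The other 5 genes had day 8 means above day 0 that missed the threshold. The differences were 2.81 for APOA2 (adjusted p = 0.218), 2.75 for APOB (adjusted p = 0.0995), 2.46 for FGA (adjusted p = 0.21), 2.44 for FGB (adjusted p = 0.0872) and 1.19 for TTR (adjusted p = 0.376) by limma. The SE of these differences, from 0.88 (FGB) to 1.5 (APOA2), comes from all 4 groups, including the arrays of day 4 and day 6 that lie apart. In a limma fit of the 4 arrays of day 0 and day 8 alone, all 8 genes were called higher, with adjusted p 6.88e-05 for APOA2 and 0.00374 for TTR, among 6805 genes called. The calls of FGG and SERPINA1 ended when any 1 array of day 0 or day 8 was left out, with adjusted p up to 0.095 and 0.157, and so did that of AFP, with adjusted p up to 0.192. The AFP call also ended without either day 4 array (adjusted p 0.0513 and 0.0514), with no filter (0.0545), with every probe set on its own (0.0534) and with eBayes without trend (0.0506) in limma. ALB, tested with no filter, was higher at day 8 by 1.69 ± 0.33 (SE) with an adjusted p of 0.0139 in limma, and this rests on 1 of its 4 probe sets.

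At day 4 none of the 8 genes was called against day 0, where 8.53% of all genes were called higher and 18.6% in either direction. The differences were 3.63 ± 1.32 (SE) for AFP, 2.88 ± 1.5 for APOA2, 2.61 ± 1.04 for APOB, 2.5 ± 0.88 for FGB, 2.26 ± 1.29 for FGA, 1.80 ± 0.64 for FGG, 1.39 ± 0.91 for TTR and 1.11 ± 0.51 for SERPINA1, with adjusted p between 0.102 (FGB) and 0.355 (TTR) by limma. Both day 4 arrays lay above both day 0 arrays for 7 of the 8 genes, TTR being the exception, against 34.3% of all genes, and 4 of the 8 had an unadjusted p under 0.05, as did 4309 of all 13653 genes. At day 6 none was called either, where 9.8% of all genes were called higher and 23.6% in either direction, and the differences ran from -0.06 ± 0.91 (SE) for TTR to 1.43 ± 1.32 for AFP, with adjusted p from 0.49 to 0.972. Only APOB and SERPINA1 had both day 6 arrays above both day 0 arrays, against 30.3% of all genes. On replicate 1 of day 6 the log2 intensity of APOA2 was 1.18 below the day 0 mean, that of FGA 0.87, of TTR 0.83 and of AFP 0.71, while on replicate 2 APOA2 was 2.60 and AFP 3.58 above it.

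Without replicate 1 of day 4 and replicate 1 of day 6, all 8 genes passed the limma threshold at day 4, day 6 and day 8 against day 0, as did 4796, 6119 and 6804 of all 13653 genes. These 2 arrays were left out because the same genes were low on them, which leaves 1 array each of day 4 and day 6, so this fit is no test of the genes. Without replicate 2 of day 6, that day is replicate 1 alone, so its differences from day 0 restate the values of that array and are no test. They were -0.71 for AFP, -1.18 for APOA2, -0.83 for TTR, -0.87 for FGA, -0.12 for FGB and -0.21 for FGG. APOB, at 0.23, and SERPINA1, at 0.07, lay above day 0.

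**Figure D3:**
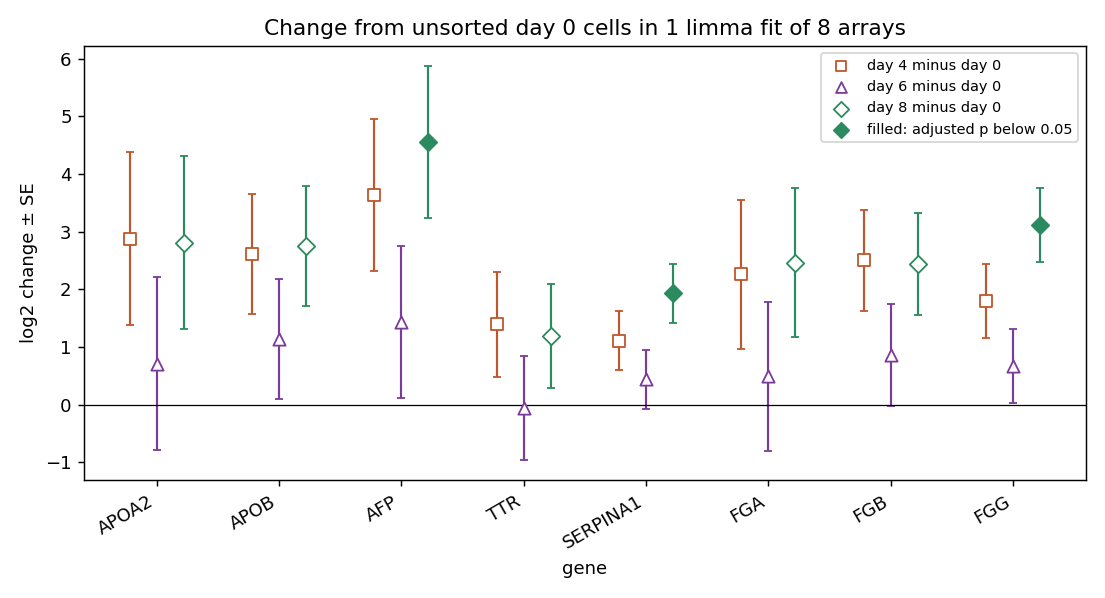
Log2 change ± SE from day 0 (y axis) of the 8 tested genes (x axis) at day 4 (squares), day 6 (triangles) and day 8 (diamonds) in 1 limma fit, filled where the adjusted p is below 0.05. Only AFP, SERPINA1 and FGG at day 8 are filled, and the day 6 changes lie lowest in all 8 genes.

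Within the sorted gate no change between days was called. In day 6 against day 4 the 8 differences ran from -2.20 ± 1.32 (SE, AFP) to -0.68 ± 0.51 (SERPINA1), with 0 of 8 and 0% of all genes called by limma. There 725 genes but none of the 8 had an unadjusted p under 0.05. No gene of the 8 had both day 6 arrays above both day 4 arrays, against 8.41% of all genes. In day 8 against day 6 they ran from 1.25 ± 0.91 (TTR) to 3.12 ± 1.32 (AFP), again with 0 of 8 and 0% of all genes called by limma. There 334 genes, FGG and SERPINA1 among them, had an unadjusted p under 0.05. Both day 8 arrays lay above both day 6 arrays for all 8 genes, as they did for 12.8% of all genes. In day 8 against day 4 they ran from -0.20 ± 0.91 (TTR) to 1.32 ± 0.64 (FGG), with 0 of 8 and 0% of all genes called by limma. There 882 genes but none of the 8 had an unadjusted p under 0.05. FGG alone had both day 8 arrays above both day 4 arrays, against 15% of all genes.

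Set against replicate 2 of day 4, an array picked because most of these genes peaked on it, the day 8 arrays fell into 3 classes, with APOA1 read from its brighter _x_at probe set. FGG was higher on both day 8 arrays, by 0.81 and 0.35 on the log2 scale. ALB was too, with intensities of 216.7 and 73.98 on the day 8 arrays and 24.03 on replicate 2 of day 4, but it was dim on the last 2 of these, so the size of its difference depends on the offset. AFP (0.13 and -0.43) and SERPINA1 (0.10 and -0.15) lay on either side of it. The other 6 were lower on both, with APOA1 at -2.32 and -2.14 and APOA2 at -2.14 and -2.03 the farthest below, and then FGA (-1.75 and -1.72), TTR (-1.42 and -1.87), APOB (-1.48 and -1.59) and FGB (-1.07 and -1.56). Of all 13653 genes, 4766 were higher on both day 8 arrays, 4318 lay on either side and 4569 were lower on both. The dim APOA1 probe set lay on either side, with 6.29 and 6.63 at day 8 against 6.37. The genes thus did not keep 1 ratio to each other: the APOA2 mean of day 8 was 4.24-fold below replicate 2 of day 4 while that of FGG was 1.49-fold above it. The side on which each gene lay was the same with quantile normalization and median centring. A smaller or larger offset cannot change it, since the offset keeps the order of the arrays. Replicate 2 of day 6 lay below replicate 2 of day 4 for 9 genes, APOA1 again by its _x_at probe set, the farthest being FGA at -2.34. ALB was dim on both. A single array of day 4 allows no test of these values.

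**Figure D4:**
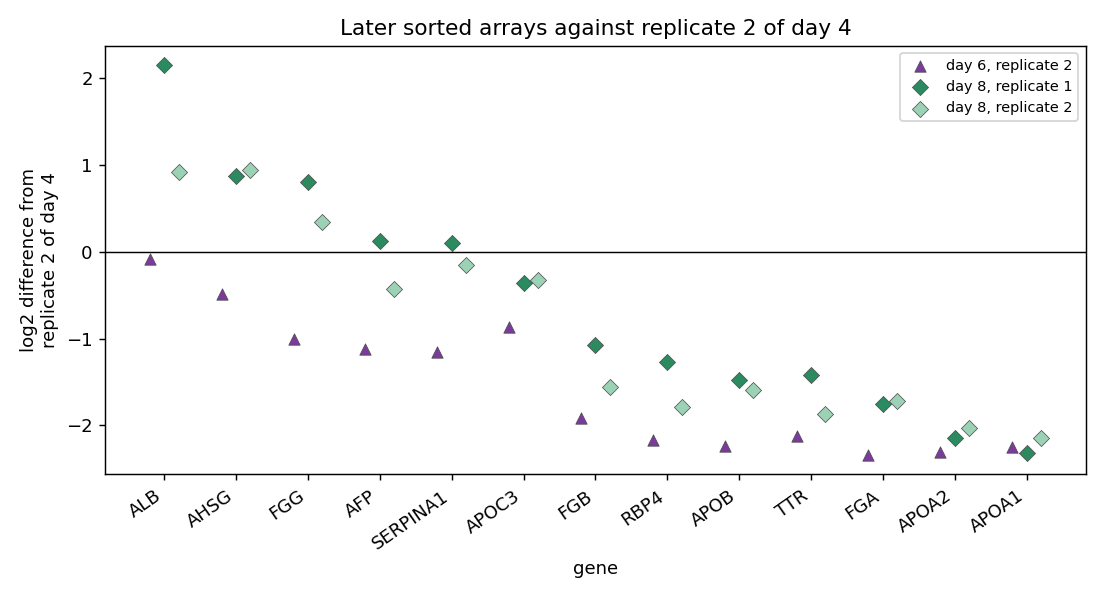
Log2 difference of replicate 2 of day 6 (triangles) and of both day 8 arrays (diamonds) from replicate 2 of day 4 (y axis) for the 10 plasma protein genes (brightest _x_at probe set for APOA1) and AHSG, APOC3 and RBP4 (x axis), ordered from high to low. ALB, AHSG and FGG lie above 0 at day 8, and APOA1 and APOA2 lie about 2 units below it.

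The genes varied together over the 6 sorted arrays. Between pairs of the 8 tested genes Pearson's r ranged from 0.786 (TTR with FGG) to 0.995 (APOB with FGA), with a median of 0.915 over 28 pairs, and all pairs share the same arrays. Among genes outside the set, the 10 with the highest r with the mean profile were COX1 (0.996), VAT1, NPFFR1, HIPK4, TSC22D1, ND4, CTSA, GALNT2, PCYOX1 and ABHD2 (0.977). Their ranges over the sorted arrays were small, from 0.19 (HIPK4) to 1.54 (GALNT2) on the log2 scale, against 1.99 (SERPINA1) to 6.07 (APOA2) in the set. COX1 and ND4 are encoded by the mitochondrial genome. In all, 226 of 13645 genes outside the set, 1.66%, had an r above 0.9, and over 6 arrays such an r is only a description.

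Of 28 other plasma protein genes on the list used, 16 were tested. At day 8 against day 0 AHSG rose, APOE and C3 fell and 13 were not called, with a median difference of 0.23, against -0.03 for all genes. AHSG encodes fetuin-A, an inhibitor of mineral deposition. AHSG stood at 6.12 and 6.27 on the day 0 arrays and 8.14 and 9.82 on those of day 4. It was at 6.28 and 9.33 on those of day 6 and 10.69 and 10.76 on those of day 8. It rose 23.0-fold at day 8 (limma adjusted p = 0.0156), and like FGG it was higher on both day 8 arrays than on replicate 2 of day 4. AHSG was dim on both day 0 arrays and on replicate 1 of day 6, so its fold depends on the offset. RBP4, the retinol carrier that circulates bound to TTR, stood at 7.11 and 7.06 on the day 0 arrays, 7.96 and 10.51 on those of day 4, 6.39 and 8.34 on those of day 6 and 9.24 and 8.72 on those of day 8, with r = 0.976 to the mean profile. Its difference of 1.90 at day 8 was not called (limma adjusted p = 0.167). APOC3, an inhibitor of lipoprotein lipase, was also highest on replicate 2 of day 4 (8.04, against 6.63 on replicate 1), with r = 0.965. RBP4 and APOC3 are named here because of their values, outside the rule for named genes. Others of the 16 had r near 0 or below it, down to -0.759 (HP) and -0.875 (C3). Of the 16, 11 were higher on replicate 2 at day 4 and 8 at day 6, with median differences of 0.17 and -0.01. APOE, a lipoprotein ligand made by many cell types, fell by 1.69 at day 8 (limma adjusted p = 0.0217) and C3, a complement protein, by 0.70 (limma adjusted p = 0.0368). F2, or prothrombin, rose 1.47-fold at day 4 (limma adjusted p = 0.0202) and was not called at day 8 (adjusted p = 0.14 by limma), and no gene of the list was called at day 6.

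Of 14 genes of lipoprotein assembly and uptake, 6 were tested. DAB2, an endocytic adaptor that endothelium also expresses, rose at day 4 (5.16-fold), day 6 (6.07-fold) and day 8 (6.72-fold), and VIL1, an actin-bundling protein of microvilli, fell by 0.68 at day 6. MTTP, which loads lipid onto APOB, did not pass the filter and exceeded the array median on 1 array, replicate 2 of day 4, with a log2 intensity of 7.47 against 6.21 on replicate 1 and at most 5.82 on the other arrays. PDZK1, an adaptor of the lipoprotein receptor SCARB1, likewise passed the median only there, with 8.49 on replicate 2 and 6.57 on replicate 1 of day 4. Both are named here because of these values, outside the rule for named genes. Of the 6 tested genes of the list, 3 were higher on replicate 2 at day 4 and 4 at day 6. Their median differences were -0.12 and 0.03.

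Of 16 transcription factors of endoderm, 8 were tested, 4 did not pass the filter and the rest were not analysed here. FOXA2 and FOXA1 were dim on all 8 arrays, between 6.59 and 6.82 and between 5.97 and 6.27. At day 4, 5 rose and FOXA3 fell, and at day 6 and at day 8, 4 rose and FOXA3 fell. SOX17 (15.9-fold), HHEX (10.8-fold) and GATA6 (6.21-fold) rose at day 4, and all 3 are also known from endothelium or cardiac mesoderm. At day 4 HHEX was at 11.67 on replicate 1 and 10.80 on replicate 2 and GATA6 at 11.41 and 10.69, the reverse of the order of the plasma protein genes. Of the 8 factors tested, 3 were higher on replicate 2 at day 4 and 3 at day 6, with median differences of -0.12 and -0.26. GATA4, a factor of visceral endoderm and heart, is named here because it had the order of the plasma protein genes at day 4. Over the sorted arrays GATA4 had r = 0.216 to their mean profile. It stood at 7.02 and 6.91 on the day 0 arrays, 8.37 and 9.88 on those of day 4, 8.11 and 8.39 on those of day 6 and 7.58 and 6.89 on those of day 8. It rose 4.47-fold at day 4 (limma adjusted p = 0.0207). NR5A2, a nuclear receptor of liver and endoderm that is named here because of its values, was higher on replicate 2 at day 4 and day 6, with 6.59 and 6.81 on the day 0 arrays, 7.86 and 9.04 on those of day 4, 7.79 and 8.97 on those of day 6 and 8.96 and 8.93 on those of day 8. NR5A2 rose 3.36-fold at day 4, 3.21-fold at day 6 and 4.75-fold at day 8 (limma adjusted p 0.0453, 0.0438 and 0.0156). SOX17 and NR5A2 were dim on both day 0 arrays, so their folds depend on the offset.

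Of 14 genes of mature liver metabolism, 5 were tested and CPS1 alone rose, 2.29-fold at day 4, 2.70-fold at day 6 and 2.48-fold at day 8, with 9.88 and 9.44 on the day 4 arrays. CYP2E1, TAT, G6PC1, PCK1, TDO2, HPD and ARG1 were dim on all 8 arrays. CYP3A4, ASGR1, ASGR2 and MAT1A, like CPS1, exceeded the array median on all 8, those of day 0 included. Of 8 epithelial genes, all tested, 7 fell at each of the 3 days, among them ESRP1, a splicing regulator, which fell by 5.2, and CDH1, or E-cadherin, which fell by 4.8 at day 4. The summed intensity of the epithelial list was 7752 and 6881 on the day 4 arrays, 5797 and 4167 at day 6, and 6351 and 3519 at day 8, against 38540 and 36670 at day 0. Gene by gene, 3 of the 8 were higher on replicate 2 at day 4 (KRT19, SPINT2 and ESRP1). At day 6 these were 3 as well (EPCAM, SPINT2 and CDH1). EPCAM, from 10.02 to 11.32, stayed above the array median on all sorted arrays. So did CDH1, KRT8, KRT18, KRT19 and SPINT2, while CLDN6 and ESRP1 did not. The part of an epithelial or endodermal share of cells in the result was not tested.

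Erythroid genes had a different order of arrays. HBE1, the embryonic beta-like globin, stood at 7.11 and 6.84 on the day 0 arrays, 7.68 and 8.03 on those of day 4, 7.59 and 11.97 on those of day 6 and 13.13 and 12.66 on those of day 8. Replicate 2 of day 6 and both day 8 arrays were high for HBE1 and for the plasma protein genes, while replicate 2 of day 4 was high for the plasma protein genes and near replicate 1 for HBE1. Of 7 erythroid genes tested, 5 rose at day 8, among them HBE1 (60.7-fold), RHAG (23.3-fold), ALAS2 (4.21-fold) and KLF1 (2.69-fold). RHAG, ALAS2 and KLF1 were dim on both day 0 arrays and HBE1 on replicate 2 of day 0, so these folds depend on the offset. RHAG and KLF1 were the only 2 called at day 4 and at day 6. Of 5 trophoblast genes tested, TFAP2C fell at each of the 3 days and the other 4 were not called.

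**Figure D5:**
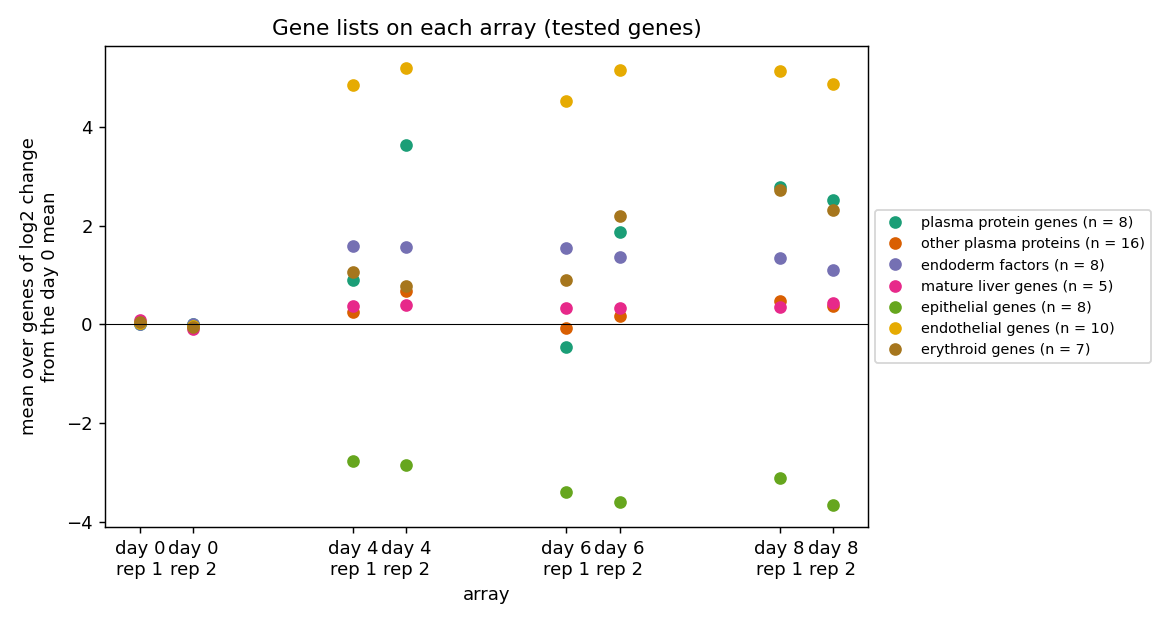
Mean over the tested genes of each list of the log2 change from the day 0 mean (y axis) on each array (x axis), for 7 lists. The plasma protein genes span -0.45 on replicate 1 of day 6 to 3.65 on replicate 2 of day 4, while the endothelial list lies between 4.53 and 5.21 on the sorted arrays and is higher on replicate 2 at day 4 and day 6.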

How the data were processed

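Gene expression was measured on 8 Affymetrix arrays of H9 cells, 2 per day. The authors deposited linear intensities, 1 per probe set and array. MAS5 was the tool per the submitters' processing notes, with version, scaling and detection calls not given in the sources used here, and total RNA was labelled as biotinylated cRNA per the labels' protocols. Titles gave the groups and replicate numbers. The source name of 3 later samples reads day 4, against their title, description and stage, which were followed.

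Of 54675 probe sets, 41091 had 1 gene symbol in the platform annotation, 1801 had several, 11721 had none and 62 were controls. The RefSeq gene table matched 41037 by gene ID and changed 0 symbols. A gene was tested on its probe set of highest mean intensity, with _x_at probe sets as a last resort, if 2 or more of the 8 arrays exceeded their median, which held for 13653 of 19775 genes. Values were log2(intensity + 32), so folds understate the change of dim genes. Differences were tested with limma 3.58.1 (R 4.3.3) in 1 fit over 8 arrays with a term per day, eBayes with trend (4 residual and 2.82 prior degrees of freedom), Benjamini-Hochberg adjustment and a threshold of 0.05, two-sided. The fit was tested on simulated data. Figures used Python 3.11.15 and matplotlib 3.10.9.

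The genes, lists and alternatives were chosen with earlier results of these data known. Every one of the 10 genes was to be named, with up to 4 called genes of each other list per comparison by smallest p and the 10 genes most like the mean profile. The alternatives changed the offset, the filter, the scaling, the probe sets per gene, the trend and the arrays fitted, added a replicate block, and left out single arrays or replicate 1 of day 4 and of day 6 together.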

Additional observations from a re-analysis of the deposited data

How the results depend on the processing

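The counts of called plasma protein genes depended mainly on which arrays entered the fit. At day 4 against day 0 the count, 0 of 8, was 1 with only the 4 arrays compared (AFP), 1 with a replicate block (FGG) and 8 when both low arrays, replicate 1 of day 4 and replicate 1 of day 6, were dropped, and lay between 0 and 5 when 1 array was left out, with 5 for replicate 1 of day 4 and 2 for either day 6 array. At day 6 against day 0 it was 8 without those 2 arrays and between 0 and 1 with 1 array left out (AFP, without replicate 1 of day 6). At day 8 against day 0 the count, 3 of 8, was 8 with only the 4 arrays compared, 5 with a replicate block (adding APOB and FGB), 8 without the 2 arrays and between 0 and 4 with 1 array left out, with 4 without either day 4 array and 0 in each fit that lacked an array of day 0 or day 8. At day 8 against day 4 APOA2 alone was called, at -2.08, without the 2 arrays. The 2 other steps kept a count of 0 in all settings run, also with 1 array left out. Where a count fell because an array was left out, the fit gives the remaining array of that day the spread of the other days, and the cause was not tested otherwise. A fit with 1 array left out rests on a single array of that day, so its count is no test of these genes. Over all 13653 genes, 2715 were called at day 4 with only the 4 arrays compared. With the replicate block, 3049 were called at day 4 and 4265 at day 8. The labels do not say that a replicate number marks a shared culture. Replicate deviations correlated at 0.601 between day 6 and day 4, 0.406 between day 8 and day 6 and 0.192 between day 8 and day 4, against -0.0247 between day 4 and day 0. With only 2 numbers this is a hint from the data and not from the design, and the block changed no other call.

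Over all genes the count at day 4 against day 0 was 2534, and 3943 with every probe set on its own, 4796 without the 2 arrays and as low as 1015 with 1 array left out. At day 6 it was 3219, and 5011, 6119 and as low as 1224. At day 8 it was 3373, and 5217, 6804, 6805 with only the 4 arrays compared and as low as 1237. Between sorted days it was 0, and at most 8 with 1 array left out and 4 without the 2 arrays.

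In all, 17 differences of single genes changed sign in at least 1 setting. With 1 array left out their ranges were as follows. At day 4 against day 0 TTR lay between -0.05 and 2.84. At day 6 against day 0 AFP lay between -0.71 and 3.58, APOA2 between -1.18 and 2.60, TTR between -0.83 and 0.71, FGA between -0.87 and 1.85, FGB between -0.12 and 1.84 and FGG between -0.21 and 1.54. At day 6 against day 4 APOB lay between -3.15 and 0.20, FGA between -3.70 and 0.16 and SERPINA1 between -1.52 and 0.16. At day 8 against day 4 AFP lay between -0.15 and 2, APOA2 between -2.08 and 1.95, APOB between -1.54 and 1.81, TTR between -1.64 and 1.25, FGA between -1.74 and 2.13, FGB between -1.31 and 1.2 and SERPINA1 between -0.03 and 1.66. Without both low arrays, AFP (-0.15), APOB (-1.54), FGA (-1.74) and SERPINA1 (-0.03) changed sign at day 8 against day 4, and TTR at day 6 against day 0 (0.71). TTR was at 0.01 at day 6 against day 0 with a larger offset, and APOA2 at 0.04 at day 8 against day 4 with quantile normalization.

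No detection calls were used, so a dim probe set gives no lower bound on expression, and of the 23 probe sets 8 never passed the array median.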
